A study of Glycine max with 12 samples.

Results

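NAC proteins are a large family of plant transcription factors, named after the genes NAM, ATAF and CUC. The genes described here are the rows of the expression table whose symbol is NAC or GMNAC followed by a number, whose normalized counts averaged 10 or more over the 12 libraries. There were 22 such genes among 55051 listed and 33119 with that mean. No NAC symbol was lost to the threshold, since the lowest mean was 26.5 (NAC5), followed by 44.4 (NAC51). In RefSeq's gene table for assembly Glycine_max_v4.0, 20 of them were found by symbol and 2 by an older name. RefSeq gives NAC27 the synonym SIN1, NAC15 the synonym GmNAC065, NAC21 the synonym GmNAC109, NAC11 the synonym GmNAC181 and NAC6 the synonym GmNAC6.

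RNA was sequenced from leaves of wild type soybean (Glycine max) of the cultivar Magellan, line PI595362, raised in growth chambers. The 4 treatments had 3 libraries each. Control plants received no treatment and were watered on a fixed weekly schedule, and the other groups were placed under water deficit, under heat stress, or under both at once, called combined stress. The labels do not give temperature, soil water, duration, hour of harvest or plant age, and do not say whether a library is a single plant or a pool. P-values therefore measure the spread between these libraries, which may in part be technical.

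A NAC protein binds DNA through a conserved domain at its N-terminal end, and its variable C-terminal end usually activates transcription. Many family members are induced by drought, salt or abscisic acid, the hormone of water shortage, and others act in leaf senescence, cell walls, roots or meristems. In soybean, GmNAC6 belongs to a cell death pathway that responds to osmotic and endoplasmic reticulum stress together with the asparagine-rich proteins NRP-A and NRP-B. SIN1 is known for root growth and salt tolerance, and GmNAC085 and GmNAC109 for raising stress tolerance when overexpressed in Arabidopsis.

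Depth was 26077068 to 46186226 recovered reads per library. The 9 leaf photosynthesis genes looked up by symbol were all detected, whereas 14 of 19 seed genes and 17 of 24 root and nodule genes had at most 3 reads in every library. Of these lists, 5 seed and 3 root and nodule genes had means of at least 10, highest in GMKTI-3 (5620) and N2 (6225). Libraries of the heated groups split on LCL3, a gene of the LHY and CCA1 family of the plant clock, with 204, 153 and 2013 normalized counts in libraries 1 to 3 of heat stress, and 308, 1863 and 2112 in those of combined stress, against 332 to 416 in control and 502 to 788 in water deficit. Heat stress library 3 stood apart from libraries 1 and 2 of its group, and calls of NAC genes that change without it are given with and without it. Leaving out a library of a group that is not compared keeps the log2 change and alters only the spread estimate shared by all groups. Whole leaves were measured, so fewer cells of a type and less RNA per cell cannot be told apart. Reads of near-identical gene copies may have been divided among copies in a way the sources used here do not state, which makes values of single family members uncertain to that extent.

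Across the 6 pairwise comparisons of the 4 groups, 9 of the 22 NAC genes had a limma adjusted p under 0.05 in at least 1, a share of 40.9% against 28.9% of all 33119 genes tested. Such genes are said to be called. Values are normalized counts, which are reads divided by a factor for each library's depth. Log2 changes are differences of the group means of log2(normalized count + 1), with their standard error (SE), and folds are taken from them. The called genes were NAC3, NAC5, NAC6, NAC15, NAC19, NAC23, NAC34, NAC35 and NAC51. On the log2 scale, water deficit gave the highest group mean for 8 NAC genes and combined stress for 9, while control did so for 3 and heat stress for 2. Over all tested genes the corresponding shares were 28.4%, 25.9%, 20.5% and 25.3%.

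**Figure D1:**
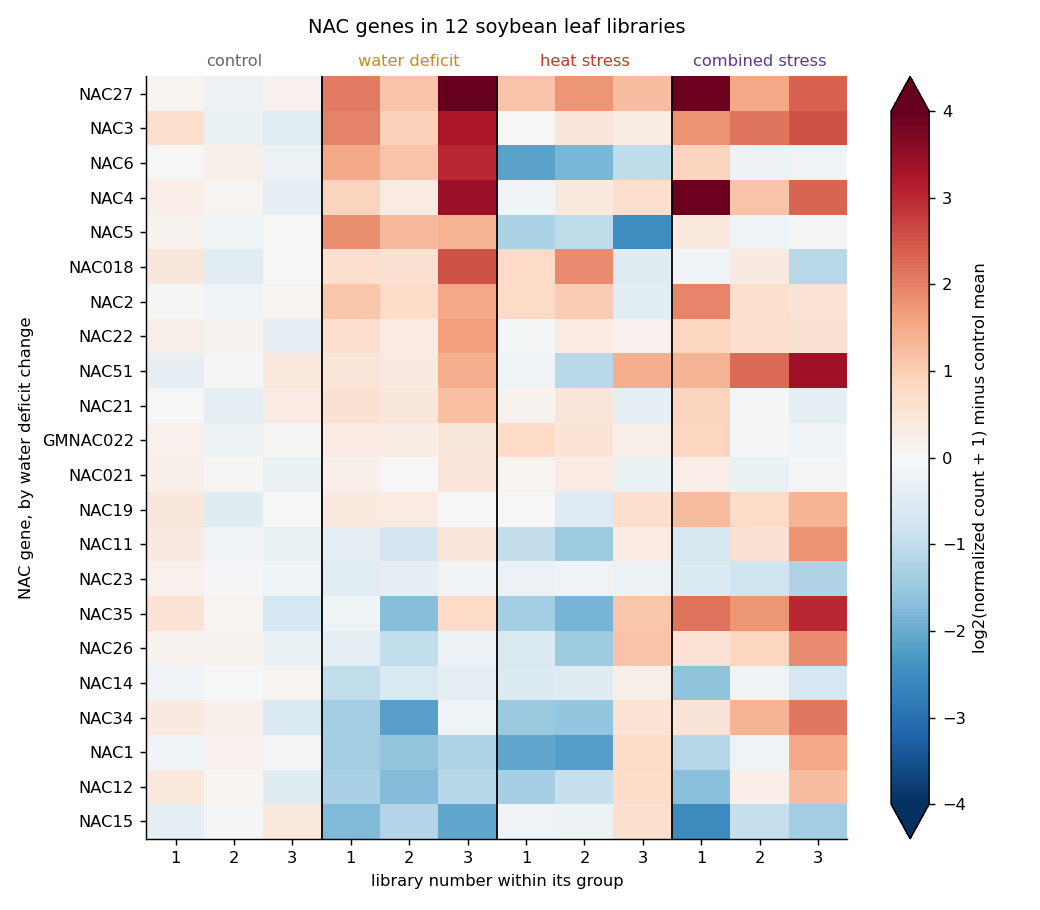
Each row is 1 of the 22 NAC genes and each column 1 of the 12 libraries; colour is log2(normalized count + 1) minus the control mean of that gene, with red above and blue below control. Water deficit library 3 is the reddest of its group for NAC27, NAC3, NAC6, NAC4 and NAC018, and heat stress library 3 differs from libraries 1 and 2 for NAC1, NAC12, NAC26, NAC34 and NAC35.

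NAC6 and NAC5 were high in water deficit, low in heat stress and near control in combined stress. NAC6 had normalized counts of 537, 629 and 454 in control libraries 1 to 3, 1519, 1193 and 4297 in water deficit, 119.8, 151 and 262 in heat stress and 989, 464 and 487 in combined stress. All 3 water deficit libraries lay above the other 9, and all 3 heat stress libraries below the other 9. Heat stress was 11.7-fold below water deficit (log2 change -3.55, SE 0.46, limma adjusted p 0.00126), the smallest p-value of the 22 genes in any comparison.

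NAC6 in combined stress lay between the single stresses, lower than water deficit (log2 change -1.71, SE 0.46, limma adjusted p 0.0326) and higher than heat stress (log2 change 1.85, SE 0.46, limma adjusted p 0.0404). Against control, its log2 change was 1.89 in water deficit (SE 0.46, limma adjusted p 0.0724) and -1.67 in heat stress (SE 0.46, limma adjusted p 0.0713), neither past the threshold although neither stress group overlapped control. Combined stress and control overlapped, and their log2 difference was 0.18 (SE 0.46, limma adjusted p 0.826). Without heat stress library 3, NAC6 was called in both single stresses, at adjusted p 0.0486 in water deficit and 0.0222 in heat stress.

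NAC5 had the same order of groups at far fewer reads, from 3 to 79 in a library. Its normalized counts were 22.0, 17.5 and 19.9 in the controls, 73.7, 49.4 and 52.3 under water deficit, 7.6, 9.3 and 2.7 under heat and 26.4, 17.4 and 19.2 under both stresses. Water deficit and heat stress did not overlap with each other or with either other group, and combined stress overlapped control. Heat stress was 8.52-fold below water deficit (log2 change -3.09, SE 0.45, limma adjusted p 0.00216). Against control, the log2 change of NAC5 was 1.5 under water deficit, -1.59 under heat and 0.07 under both (SE 0.45, limma adjusted p 0.150, 0.0795 and 0.940). Combined stress differed by -1.43 from water deficit and by 1.66 from heat stress (adjusted p 0.0583 and 0.0577), without being called. With heat stress library 3 left out, limma called NAC5 in water deficit against control (0.0461), in combined stress against water deficit (0.0157) and in combined stress against heat stress (0.0452).

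The 2 differences of NAC6 and NAC5 between heat stress and water deficit were called whichever of the 12 libraries was left out (adjusted p at most 0.00790 and 0.0135). The calls of NAC6 in combined stress were less stable: that against water deficit was lost without water deficit library 1 or 3 or combined stress library 2 or 3 (adjusted p up to 0.124), and that against heat stress was kept only without water deficit library 2 or 3 or heat stress library 3 (adjusted p 0.0113 to 0.169). edgeR did not call the latter (adjusted p 0.0547), and limma on only the libraries compared called neither (0.0780 and 0.109).

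**Figure D2:**
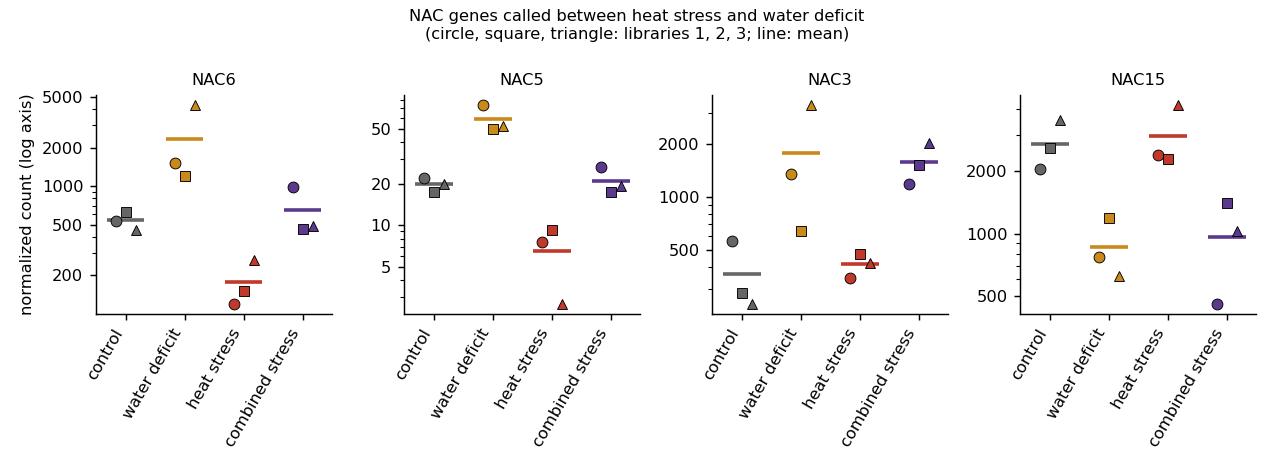
Normalized counts of NAC6, NAC5, NAC3 and NAC15 on log axes, 1 symbol per library and a line at each group's mean. NAC6 and NAC5 are highest in water deficit and lowest in heat stress, NAC3 is high and NAC15 low in water deficit and combined stress.

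NAC3 was higher and NAC15 lower in both droughted groups than in both watered groups. Normalized counts of NAC3 were 562, 287 and 249 in control and 347, 476 and 424 in heat stress, against 1349, 644 and 3301 in water deficit and 1187, 1518 and 2018 in combined stress. All 6 libraries of the droughted groups were above all 6 of the watered groups. NAC3 rose 4.48-fold in combined stress over control (log2 change 2.16, SE 0.49, limma adjusted p 0.0140) and was higher there than in heat stress (log2 change 1.90, SE 0.49, limma adjusted p 0.0459). It was lower in heat stress than in water deficit (log2 change -1.78, SE 0.49, limma adjusted p 0.0292). In water deficit against control its log2 change was 2.05 (SE 0.49, limma adjusted p 0.0667), with library 3 at 3301 far above library 2 at 644.

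NAC15 ran the opposite way, and its counts were among the 3 highest of the NAC genes, with NAC2 and GMNAC022 (counts not divided by gene length). Normalized counts of NAC15 were 2047, 2597 and 3548 in control and 2392, 2305 and 4185 in heat stress, against 774, 1187 and 627 in water deficit and 458, 1401 and 1025 in combined stress. Again no library of a droughted group overlapped with a watered one. NAC15 fell 3.06-fold in combined stress from control (log2 change -1.61, SE 0.40, limma adjusted p 0.0219) and was lower there than in heat stress (log2 change -1.71, SE 0.40, limma adjusted p 0.0329). It was higher in heat stress than in water deficit (log2 change 1.77, SE 0.40, limma adjusted p 0.0136). The difference of water deficit from control was not called (log2 change -1.68, SE 0.40, limma adjusted p 0.0680), but was without heat stress library 3 (0.0461).

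For both genes the heat contrasts within a water supply were small. The log2 difference of NAC15 was 0.10 for heat stress over control and 0.06 for combined stress over water deficit, and that of NAC3 was 0.27 and 0.11 (none called by limma, adjusted p 0.804 to 0.937). Of the 12 fits that left out 1 library, 9 kept each of the combined stress calls against control, and in both genes these were lost without control library 2, control library 3 or combined stress library 3 (adjusted p up to 0.0635 for NAC3 and 0.0896 for NAC15). Between heat stress and water deficit, NAC15 was lost only without water deficit library 3 (adjusted p 0.0559), and NAC3 without water deficit library 1 or 3 or heat stress library 1 or 2 (up to 0.0996). Between combined and heat stress, NAC15 was kept in 6 fits (lost without control library 2, water deficit library 1, heat stress library 1 or 2, or combined stress library 1 or 3; up to 0.0926) and NAC3 only without water deficit library 2 or 3 or heat stress library 3 (up to 0.171 otherwise). edgeR did not call NAC3 between combined and heat stress (adjusted p 0.0536). On only the libraries compared, limma lost NAC15 there (0.146) and NAC3 between heat stress and water deficit (0.0793).

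NAC34 and NAC35 were highest in combined stress and below control by their mean in each single stress. NAC35 had normalized counts of 409, 297 and 168 in the controls, 244, 84.2 and 479 under water deficit, 106, 74.4 and 596 under heat and 1232, 934 and 2238 under both stresses. Every combined stress library was above all 9 others. NAC35 was 6.37-fold higher in combined stress than in water deficit (log2 change 2.67, SE 0.76, limma adjusted p 0.0395) and 8.13-fold higher than in heat stress (log2 change 3.02, SE 0.76, limma adjusted p 0.0421). Its change from control to combined stress was 2.32 on the log2 scale (SE 0.76, limma adjusted p 0.0628).

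NAC34 had 691, 617 and 361 in the controls, 208, 118 and 477 under water deficit, 189, 183 and 807 under heat and 774, 1375 and 2333 under both stresses. Combined stress overlapped heat stress through library 1 of the former and library 3 of the latter, and stood above control and water deficit. The difference from water deficit was called (log2 change 2.57, SE 0.63, limma adjusted p 0.0229), while those from heat stress (log2 change 2.15, SE 0.63, limma adjusted p 0.0727) and from control (log2 change 1.34, SE 0.63, limma adjusted p 0.179) were not.

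In both genes heat stress library 3, the library with high LCL3, was several-fold above libraries 1 and 2. Without it, the difference between combined and heat stress was 3.93 for NAC35 (adjusted p 0.00271) and 2.86 for NAC34 (adjusted p 0.00608), both called, and NAC35 was also called in combined stress against control (adjusted p 0.0168). In combined stress, library 1 had the low LCL3 value, and NAC35 was higher there than in library 2, while NAC34 was lower. The part of the LCL3 difference in these values was not tested. The call of NAC35 against heat stress was kept only without water deficit library 2 or 3 or heat stress library 3 (adjusted p up to 0.171 otherwise), and neither edgeR (adjusted p 0.0931) nor limma on only the libraries compared (0.136) made it. edgeR also did not call NAC35 against water deficit (adjusted p 0.0601). Against water deficit, NAC34 was kept in 8 of 12 such fits (lost without water deficit library 1 or 2 or combined stress library 2 or 3; up to 0.103) and NAC35 in 5 (kept without control library 3, water deficit library 3 or any 1 heat stress library; up to 0.150 otherwise).

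NAC19, NAC51 and NAC23 complete the genes called in combined stress against control. NAC19, for which RefSeq lists the older names NAC011 and NAC20, had 305, 158 and 226 normalized counts in the controls, 290.2, 277 and 218 under water deficit, 219, 156 and 354 under heat and 529, 383 and 575 under both stresses. All combined stress libraries were above the 9 others, and NAC19 rose 2.20-fold over control (log2 change 1.14, SE 0.32, limma adjusted p 0.0355). NAC51 had 13.2, 16.0 and 23.0 in the controls, 24.3, 22.0 and 47.9 under water deficit, 15.1, 7.4 and 48.2 under heat and 44.6, 85.3 and 186 under both stresses, and rose 5.02-fold over control (log2 change 2.33, SE 0.66, limma adjusted p 0.0378). Combined stress library 1 of NAC51 lay within the range of the single stresses. With heat stress library 3 left out, limma also called combined stress against heat stress for NAC19 and NAC51 (adjusted p 0.00918 and 0.00738) and against water deficit for NAC19 (0.0367).

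NAC23 had the smallest change of the called genes. It had 86.3, 71.6 and 71.1 in the controls, 56.9, 60.4 and 70.0 under water deficit, 64.3, 68.8 and 64.3 under heat and 51.2, 43.1 and 32.8 under both stresses, whose libraries were all below the 9 others. It fell 1.80-fold in combined stress (log2 change -0.85, SE 0.26, limma adjusted p 0.0496), at the edge of the threshold, and neither edgeR (adjusted p 0.0728) nor limma on only the libraries compared (0.0833) called it. Of the fits that left out 1 library, 6 kept NAC19 (lost without control library 2 or 3, water deficit library 1 or 2, or combined stress library 1 or 3; adjusted p up to 0.132). For NAC51, 5 did (kept without water deficit library 3, any 1 heat stress library or combined stress library 1; up to 0.162 otherwise), and for NAC23, 2 did (without heat stress library 3 or combined stress library 1; up to 0.190 otherwise).

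A further group of NAC genes was high in water deficit above all in library 3, and limma called none of them there. NAC27, the SIN1 gene, had normalized counts of 49.3, 39.6 and 53.3 in the controls, 201, 104 and 1939 under water deficit, 105, 161 and 112 under heat and 724, 139 and 246 under both stresses. Each stress group lay above control without overlap, yet the changes were 2.84, 1.37 and 2.61 (log2) with SE of 0.87 and limma adjusted p of 0.152, 0.393 and 0.0671. Without water deficit library 3, its water deficit change was 1.60 (adjusted p 0.365). That omission left its combined stress change at 2.61 but, through the shared spread estimate, brought it past the threshold (limma adjusted p 0.00843).

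NAC4 had 41.4, 36.6 and 26.1 in the controls, 64.4, 43.0 and 387 under water deficit, 31.5, 44.6 and 54.5 under heat and 527, 76.2 and 177 under both stresses. Water deficit library 3 and combined stress library 1 were its extremes, and the combined stress change missed the threshold in limma (log2 change 2.46, SE 0.78, limma adjusted p 0.0557) but not in edgeR (adjusted p 0.0441). NAC018 had 722, 388 and 515 in the controls, 829, 798 and 3046 under water deficit, 913, 1926 and 371 under heat and 482, 679 and 242 under both stresses, so that heat stress library 2 and water deficit library 3 stood out. limma and edgeR called it in no contrast, and DESeq2 in combined stress against water deficit (adjusted p 0.0291). In water deficit, library 3 was at least 2 times both other libraries for 6 NAC genes (NAC018, NAC27, NAC3, NAC34, NAC4 and NAC6), a pattern seen in 5.58% of all tested genes. It was the highest of its group for 19 of 22 NAC genes, against 39.1% of all genes, and library 2 was the lowest for 18, against 30.0%.

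NAC2, NAC22 and NAC21 shared smaller differences of the same sign. NAC2, the NAC gene with the most counts, had 1613, 1419 and 1694 in the controls, 3368, 2700.2 and 4577 under water deficit, 2744, 3204 and 1171 under heat and 6144, 2502 and 2317 under both stresses. Its water deficit and combined stress libraries were all above control, with log2 changes of 1.14 and 1.07 (SE 0.41, limma adjusted p 0.232 and 0.109), and the latter was called without heat stress library 3 (0.0452). NAC22 had log2 changes of 0.87 and 0.71 (SE 0.29, adjusted p 0.186 and 0.125), also without overlap with control. NAC21, the GmNAC109 gene, had a log2 change of 0.75 in water deficit (SE 0.34, adjusted p 0.358) and of 0.15 in combined stress. Water deficit library 3 was the highest of its group in these genes too. Libraries 1 to 3 of water deficit had 1473, 1188 and 2914 for NAC22 and 591, 528 and 895 for NAC21.

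NAC1, NAC12, NAC26 and NAC11 varied widely among heated libraries. NAC1 had 436, 526 and 444 in control and 179, 157 and 199 in water deficit, with no overlap, and then 109.7, 100.4 and 788 in heat stress and 212, 412 and 1347 in combined stress. NAC12 had 1586, 1250.3 and 839 in the controls, 477, 357 and 542 under water deficit, 474, 626 and 1964 under heat and 370.1, 1432 and 2767 under both stresses. In both genes heat stress library 3 and combined stress library 3 were the highest of their groups and combined stress library 1 the lowest, as in LCL3, although library 2 of NAC1 lay nearer to library 1 and that of LCL3 nearer to library 3. The part of the LCL3 difference was not tested here either. NAC26 had 939, 947 and 714 in the controls, 664, 431 and 733 under water deficit, 580.1, 321 and 1891 under heat and 1295, 1556 and 3205 under both stresses.

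NAC11, the GmNAC181 gene, had 434, 312 and 280.3 in the controls, 263, 200.5 and 466 under water deficit, 173, 124 and 421 under heat and 214, 513 and 1158 under both stresses. limma and edgeR called none of these 4 genes in any contrast with all 12 libraries. DESeq2 called NAC1, NAC12 and NAC26 in combined stress against water deficit (adjusted p 0.0437, 0.0273 and 0.0106). Against heat stress, limma gave combined stress differences of 1.40 for NAC26, 1.25 for NAC1, 1.27 for NAC11 and 0.44 for NAC12 (adjusted p 0.154, 0.358, 0.228 and 0.741). Without heat stress library 3 these were 2.11, 2.21, 1.78 and 1.06 (0.00485, 0.0190, 0.0507 and 0.265), so that NAC26 and NAC1 were called. That omission also brought NAC26 past the threshold in combined stress against control (adjusted p 0.0451) and against water deficit (0.00969). Heat stress library 3 was at least 2 times both other heat stress libraries for 7 NAC genes (NAC1, NAC11, NAC12, NAC26, NAC34, NAC35 and NAC51), against 8.48% of all genes, and combined stress library 3 for 4 (NAC1, NAC11, NAC26 and NAC51), against 0.864%. Other NAC genes went the other way. Heat stress library 3 was at most 1/2 of both others for 3 (NAC018, NAC2 and NAC5), against 10.3% of all genes. Combined stress library 1 was at least 2 times both others for 4 (NAC2, NAC27, NAC4 and NAC6), against 6.67%. The spread between libraries of a group had a larger median for NAC genes than for all genes: the median SD on the log2 scale was 0.32 against 0.25 in control, 0.44 against 0.27 in water deficit, 0.58 against 0.37 in heat stress and 0.72 against 0.35 in combined stress (n = 3 each), given as a description without a test.

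**Figure D3:**
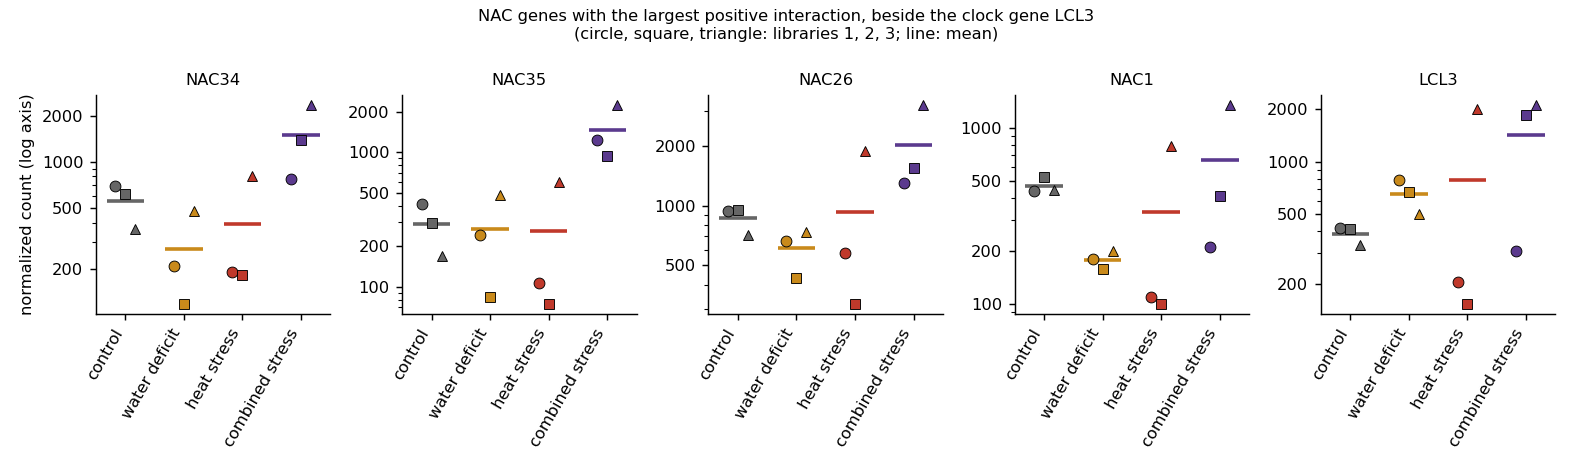
Normalized counts of NAC34, NAC35, NAC26, NAC1 and the clock gene LCL3 on log axes, 1 symbol per library and a line at each group's mean. In heat stress, library 3 (triangle) lies far above libraries 1 and 2 in all 5 genes, and in combined stress, library 3 is the highest in all 5. Combined stress library 1 lies above library 2 in NAC35 and below it in NAC34, NAC26, NAC1 and LCL3.

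The remaining NAC genes, NAC021, GMNAC022 and NAC14, were not called in any contrast by limma, edgeR or DESeq2. NAC021 had group means of 419 ± 66.1 in the controls, 494 ± 83.3 under water deficit, 439.6 ± 87.5 under heat and 411 ± 77.6 under both stresses (SD, n = 3 each), with log2 changes from control between -0.03 and 0.24. GMNAC022 had 1704, 1317 and 1573 in the controls, 1916, 1859.9 and 2096 under water deficit, 2638, 2206 and 1802 under heat and 2756, 1444 and 1387 under both stresses. Its largest change from control was 0.52 in heat stress (SE 0.25, limma adjusted p 0.260). NAC14 had 919.8, 1003 and 1093 in the controls, 508, 660.0 and 757 under water deficit, 679.7, 724 and 1184 under heat and 327, 921 and 612 under both stresses. Its water deficit libraries were all below control, with a log2 change of -0.66 (SE 0.33, adjusted p 0.421), and the combined stress change was -0.82 (adjusted p 0.127).

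Water deficit against control called 0 NAC genes with limma, and 1.28% of all genes. At an unadjusted p under 0.05 there were 8 (13.8% of all genes), edgeR called 0 (0.978% of all genes) and DESeq2 called 5 (NAC3, NAC5, NAC6, NAC15 and NAC27; 5.85% of all genes). The groups did not overlap for 15 of 22 NAC genes, 10 of them higher and 5 lower, against 13.9% and 13.5% of all genes. The median log2 change was 0.30 against 0.02 for all genes, and 7 NAC genes had fitted values at least 2-fold higher and 4 at least 2-fold lower, where 10.1% of all genes differed by 2-fold in either direction. Without heat stress library 3, limma called NAC5, NAC6 and NAC15 (2.46% of all genes). The log2 changes stayed the same, since no heat stress library enters this comparison, and only the shared spread estimate differed.

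Heat stress against control also called 0 NAC genes with limma (3.11% of all genes), and 2 were at an unadjusted p under 0.05 (21.1% of all genes). edgeR called 0 (2.94% of all genes) and DESeq2 called NAC5 and NAC6 (10% of all genes). Groups were apart for 2 NAC genes that were higher (GMNAC022 and NAC27) and 3 that were lower (NAC5, NAC6 and NAC23), against 13.5% and 13.3% of all genes. The median size of change was 0.39 against 0.35 for all genes. Without heat stress library 3, limma called NAC6 and also NAC1, at a log2 change of -2.14 (adjusted p 0.0284), where 14.3% of all genes were called.

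Combined stress against control called 5 NAC genes, 3 higher and 2 lower, in a comparison that called 13.8% of all genes, 6.56% higher and 7.25% lower. The groups were apart for 10 higher and 2 lower, against 18.5% and 19.7%, and the median change was 0.40 against -0.01 for all genes. The 10 higher genes were NAC2, NAC3, NAC4, NAC19, NAC22, NAC26, NAC27, NAC34, NAC35 and NAC51. The count of 5 was 0 without control library 2, control library 3 or combined stress library 3, 2 without water deficit library 1, 3 without control library 1 or water deficit library 2, and 8 without heat stress library 3 (20.0% of all genes).

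**Figure D4:**
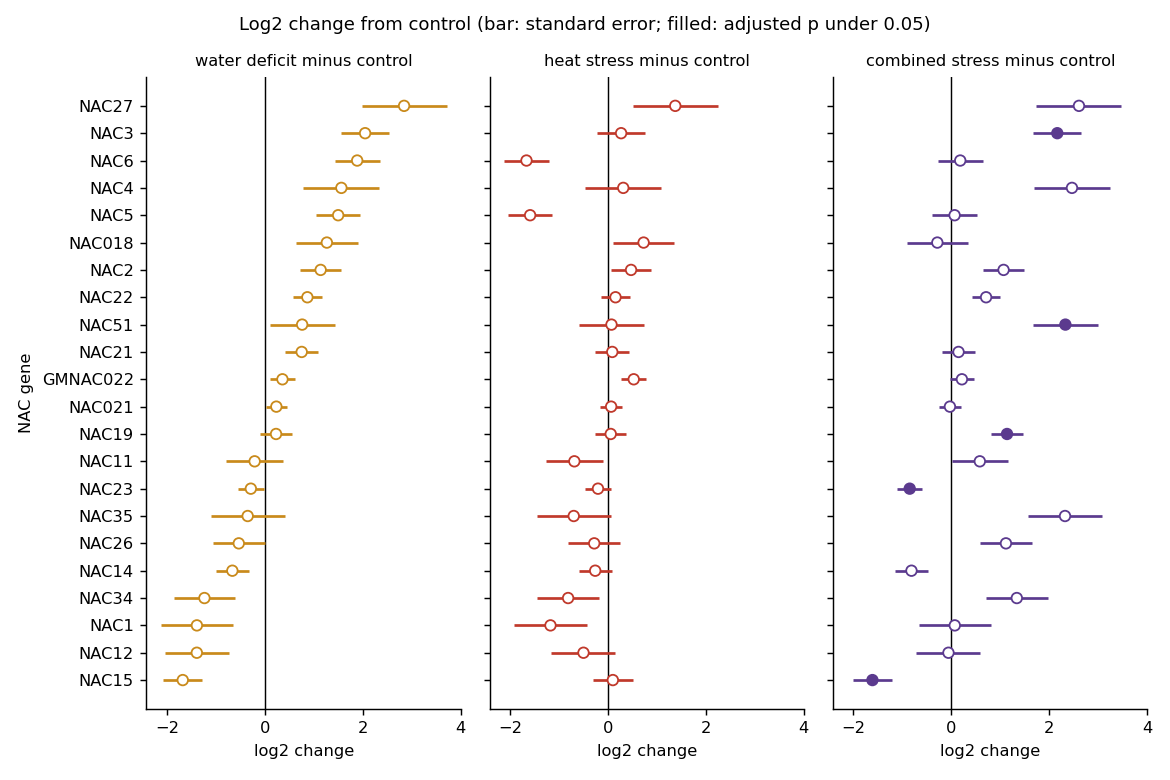
Log2 change of each NAC gene from control in water deficit, heat stress and combined stress, with bars of 1 standard error and filled points at a limma adjusted p under 0.05. Only combined stress has filled points (NAC3, NAC15, NAC19, NAC23 and NAC51); the 3 panels share the control libraries.

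Between stresses, heat stress against water deficit called 4 NAC genes (NAC15 higher; NAC3, NAC5 and NAC6 lower), where 16.4% of all genes were called, 8.16% higher and 8.19% lower. The 2 groups were apart for 1 higher and 4 lower NAC genes, against 17.6% and 17.7% of all genes. Combined stress against water deficit called 3 (NAC34 and NAC35 higher, NAC6 lower), against 12.7% of all genes, 5.87% higher and 6.87% lower, and was apart from it for 5 higher and 4 lower, against 17.4% and 18.5%. Combined stress against heat stress called 4 (NAC3, NAC6 and NAC35 higher, NAC15 lower), against 5.21% of all genes, 2.38% higher and 2.83% lower, and was apart from it for 7 higher and 2 lower, against 9.17% and 10.2%. In that last comparison the median change of the NAC genes was 1.16 against -0.01 for all genes, and 12 were at least 2-fold higher and 2 at least 2-fold lower, where 15.5% of all genes differed by 2-fold in either direction. The count of 4 against heat stress was 10 without heat stress library 3 (20.7% of all genes), 1 without combined stress library 1 or 2 or control library 1 or 3, and 0 without combined stress library 3, control library 2, water deficit library 1 or heat stress library 1 or 2. The count of 3 against water deficit was 0 without combined stress library 2 or 3 or water deficit library 1, 1 without water deficit library 2 and 6 without heat stress library 3 (19.5% of all genes). That of heat stress against water deficit was 2 to 4 in all 12 fits and was 2 without water deficit library 3.

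The treatments against control share the control libraries, and the comparisons between stresses share the stressed ones. The interaction asks whether heat changed a gene differently in droughted and in watered plants. limma called 0 NAC genes, as it called 0 of all genes (0.0%), with 5 NAC genes at an unadjusted p under 0.05 (9.46% of all genes), and edgeR and DESeq2 also called 0 NAC genes (0.0% and 0.833% of all genes). The largest values were 3.39 for NAC34 (SE 0.89, adjusted p 0.400) and 3.37 for NAC35 (SE 1.07, adjusted p 0.432), and the lowest -2.28 for NAC018 (SE 0.89, adjusted p 0.485). Without heat stress library 3, 4 NAC genes were called, where 4.78% of all genes were: NAC34 at 4.09, NAC35 at 4.28, NAC1 at 3.60 and NAC26 at 2.64 (adjusted p 0.0177 to 0.0277). For NAC6, NAC3 and NAC15 the interaction was -0.04, -0.15 and -0.03 (SE 0.65, 0.69 and 0.57).

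RefSeq names further soybean NAC genes that the table lists under another identifier, and 15 of 30 of these had a mean of at least 10. SNAC41 and LOC100816770 (RefSeq synonym NAC55), like NAC6, had their highest mean in water deficit and their lowest in heat stress. SNAC41 had 291, 207 and 179 normalized counts in the controls, 540.3, 482 and 373 under water deficit, 12.6, 24.2 and 74.1 under heat and 192, 134 and 113 under both stresses. It fell in heat stress against control (log2 change -2.91, SE 0.49, limma adjusted p 0.0134), the only NAC gene of either list called there, and was 15.6-fold lower in heat stress than in water deficit (log2 change -3.96, SE 0.49, limma adjusted p 0.00115). LOC100816770 had 224, 328 and 257 in the controls, 1229, 787 and 3229.6 under water deficit, 37.8, 71.6 and 138 under heat and 941, 381 and 452 under both stresses, with heat stress 20.0-fold below water deficit (log2 change -4.32, SE 0.55, limma adjusted p 0.00119).

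LOC100811301, which RefSeq gives the synonym GmNAC085, was the only NAC gene of either list called in water deficit against control. It had 25.6, 33.5 and 33.5 in the controls, 239.8, 160.2 and 1809 under water deficit, 40.4, 106 and 19.6 under heat and 372, 139 and 244 under both stresses. It rose in water deficit (log2 change 3.71, SE 0.81, limma adjusted p 0.0496) and in combined stress (log2 change 2.89, SE 0.81, limma adjusted p 0.0346). Of the 12 fits with 1 library left out, 4 kept the water deficit call (those without water deficit library 2, heat stress library 2 or 3, or combined stress library 1; adjusted p 0.0320 to 0.184 over the 12). The combined stress call was lost on leaving out any 1 of the 3 control libraries or combined stress library 1 or 3 (up to 0.103), and that of SNAC41 in heat stress without control library 1 or 2 or heat stress library 2 (up to 0.0644). SNAC38 had the most counts of the 15, with 1529, 1692 and 1218 in the controls and 1983, 2499.6 and 2528 under both stresses (log2 change 0.66, SE 0.30, limma adjusted p 0.164). Over the 15 genes, heat stress against water deficit called 5 lower and 0 higher, in a comparison that called 8.19% of all genes lower and 8.16% higher, with a median log2 change of -1.41, against -0.42 for the 22 NAC genes and -0.03 for all genes. The other 2 of these 5 were LOC100787702 (RefSeq symbol NAC170) and LOC100170711 (RefSeq synonym GmNAC019). LOC100170711 was near the floor, with normalized counts of 29.9, 35.7 and 8.0 in water deficit and 0.0, 2.8 and 0.0 in heat stress. Its mean over the 12 libraries was 11.8.

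**Figure D5:**
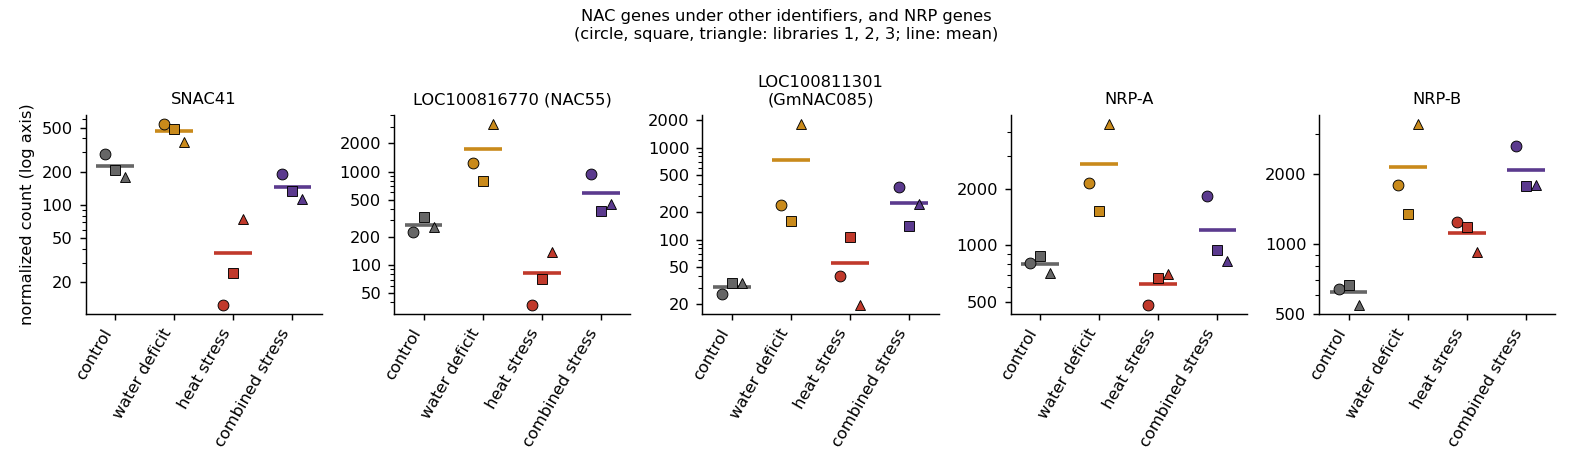
Normalized counts on log axes of 3 NAC genes listed under other identifiers (SNAC41, LOC100816770 and LOC100811301) and of NRP-A and NRP-B, 1 symbol per library and a line at each group's mean. All 5 genes are highest in water deficit by the plotted arithmetic mean, NRP-B and LOC100811301 only by their library 3. SNAC41, LOC100816770 and NRP-A are lowest in heat stress by that mean.

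Genes of pathways in which NAC factors are known to act were taken from lists of symbols. The NRP list held 6 genes by symbol (NRP-A, NRP-B, VPE, VPE2, GMBIP2 and GMBIP4). NRP-B was called in water deficit (log2 change 1.70, SE 0.29, limma adjusted p 0.0191) and in combined stress (log2 change 1.73, SE 0.29, limma adjusted p 0.00326), and the other 5 in no treatment against control. Of all genes, 0.589% were called higher in water deficit and 6.56% in combined stress. NRP-B had 638, 667 and 547 normalized counts in the controls, 1809, 1346 and 3309 under water deficit, 1239.5, 1190.5 and 926 under heat and 2659.8, 1784 and 1800.3 under both stresses, so that every stressed library was above control. Its water deficit call was lost on leaving out any 1 control library or water deficit library 1 or 3 (adjusted p up to 0.11), and its combined stress call was kept in all 12 fits. NRP-A had 803, 882 and 712 in the controls, 2155, 1524 and 4418 under water deficit, 486, 675 and 709.9 under heat and 1831, 944 and 830.1 under both stresses, and was lower in heat stress than in water deficit (log2 change -1.99, SE 0.37, limma adjusted p 0.00616), as NAC6 was. VPE2, a vacuolar processing enzyme symbol and the list's gene with the most counts, had log2 changes of -1.12, -1.11 and -0.09 in water deficit, heat and combined stress (limma adjusted p 0.251, 0.161 and 0.910).

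Among 6 tested genes of the senescence and chlorophyll breakdown list, 2 rose and 1 fell in combined stress, where 6.56% of all genes rose and 7.25% fell. The stay-green genes SGR1 and SGR2, whose products remove magnesium from chlorophyll, rose by 1.56 and 1.86 (log2; SE 0.25 and 0.34, limma adjusted p 0.00250 and 0.00479), and PAO1 fell (log2 change -0.87, SE 0.18, limma adjusted p 0.00990). SGR2 had 929, 626 and 656 in the controls, 1819.5, 1212 and 2691 under water deficit, 729, 1189.6 and 550.1 under heat and 2974, 1970.2 and 3115 under both stresses. NYC1_2, named after a chlorophyll b reductase, fell in heat stress (log2 change -1.32, SE 0.23, limma adjusted p 0.0154; lost on leaving out any 1 control library or heat stress library 1 or 2, adjusted p up to 0.0686), and NYC1_1, with the most counts of the list, was not called against control in any treatment. D14, which the symbol pattern also caught and which is a strigolactone receptor rather than a senescence enzyme, fell in water deficit (log2 change -1.29, SE 0.23, limma adjusted p 0.0226; lost on leaving out control library 1 or 3 or any 1 water deficit library, adjusted p up to 0.117).

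Of 17 genes in the dehydration and osmolyte list, 1 was called higher in water deficit (DEHYDRIN) and 0 in heat stress (with 2 at an unadjusted p under 0.05). In combined stress 5 were called higher (DEHYDRIN, GMRD22, GOLS, GMDREB2A2 and DREB2). Of all genes, 0.589%, 1.72% and 6.56% were called higher in these comparisons. All 17 were taken by symbol alone, and the pattern also caught GMBIP2 and GMBIP4, which the NRP list counts as well. DEHYDRIN, whose family protects proteins and membranes of drying cells, had 15.0, 7.6 and 26.1 normalized counts in the controls, 1220.5, 137 and 7872 under water deficit, 1.3, 13.9 and 17 under heat and 28753, 3982 and 9348 under both stresses. Both droughted groups lay above both watered groups in every library. Its limma adjusted p was 0.0417 in water deficit, kept only without water deficit library 2, heat stress library 1 or 3, or combined stress library 1 or 2 (up to 0.156 otherwise), and 0.00104 in combined stress, kept in all 12 fits. GMRD22, a homologue of a dehydration gene of Arabidopsis, rose in combined stress from 2368 ± 606 to 10591 ± 3940.5 normalized counts (SD, n = 3 each; log2 change 2.13, SE 0.30, limma adjusted p 0.00131). GOLS, galactinol synthase, which makes a protective sugar precursor, had 28.2, 41.9 and 16.7 in the controls, 616, 141 and 4926 under water deficit, 42.9, 133 and 73.2 under heat and 4804, 1248 and 672 under both stresses (log2 change 5.82, SE 1.06, limma adjusted p 0.00482 against control). Its water deficit library 3 was the highest of that group by a wide margin, as in NAC27, NAC3, NAC4 and NAC6. GMDREB2A2 and DREB2, named as factors of the dehydration response, rose in combined stress at limma adjusted p of 0.0268 and 0.0362, lost without control library 1 or 3 or combined stress library 3 for both and also without control library 2 or combined stress library 1 for DREB2 (up to 0.105 and 0.106). DREB3, with the most counts, was not called there (log2 change 0.25, SE 0.24, limma adjusted p 0.511).

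Of the abscisic acid list only NCED2 reached the mean of 10, a symbol of the enzyme family that makes the hormone's precursor. It had 13.2, 29.0 and 22.0 normalized counts in the controls, 5.6, 6.4 and 0.9 under water deficit, 30.3, 66.9 and 25.0 under heat and 5.0, 4.1 and 7.2 under both stresses. It was higher in heat stress than in water deficit (log2 change 3.08, SE 0.64, limma adjusted p 0.00964) and lower in combined than in heat stress (log2 change -2.59, SE 0.64, limma adjusted p 0.0400). The latter call was kept only without water deficit library 2 or 3 or heat stress library 3 (adjusted p up to 0.164 otherwise). GMABI5 had a mean under 10 and was not tested.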

How the data were processed

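The deposited table gives, per gene and library, a signal that its name calls normalized counts. Per the submitters' processing notes, cutadapt 1.18, FastQC 0.11.7, STAR 2.4.0.1 and DESeq2 1.20.0 were used. Their roles, the genome build, the annotation and the counting are not given in the sources used here. Dividing each column by the value of a single read gave whole reads for 100% of positive values (tolerance 0.001). Groups follow the treatment label, and libraries were numbered 1 to 3 in record order, which pairs none of them. No column was left unused (0 without a sample).

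The test was limma 3.58.1 (R 4.3.3) on log2(value + 1) of the 33119 genes averaging 10 or more, with all 12 libraries in a single fit without covariates, a variance trend, two-sided tests and Benjamini-Hochberg adjustment over all genes in each of 7 contrasts. Genes with an adjusted p under 0.05 were called. That log2 scale understates the changes of low genes. edgeR 4.0.16 was to be the main test for raw counts only. It and DESeq2 1.42.0 (outlier and independent filtering off) were run on recovered reads as alternatives. limma, edgeR and DESeq2 were each run on simulated counts in which genes changed only in combined stress and no library was made to stand apart. The other settings were not simulated.

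NAC genes and lists were chosen with earlier results of these data known. Values per library were given for every NAC gene called in a contrast, the 3 with the highest mean, and, with a mean of at least 100, the 2 largest changes each way per contrast. In other lists the named genes are the highest mean and at most 4 called against control, and others were named after their values were seen. RefSeq's table gives no descriptions, so further NAC genes were found by RefSeq symbol or synonym, a choice made after the data were seen. Pairs by protein identity were not used here.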

Additional observations from a re-analysis of the deposited data

Results flagged for a closer look

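In 4 NAC genes the libraries under water deficit lay in opposite directions in unheated and heated plants. Every water deficit library lay on one side of the control mean (log2 scale), and every combined stress library on the other side of the heat stress mean. For NAC1 this held only on the log2 scale, since combined stress library 1 (212) lay below the arithmetic heat stress mean (333). How many of all tested genes have this pattern was not counted, so the count of 4 cannot be judged against them. The difference between the water deficit changes with and without heat is the interaction, which limma called for none of the 4 genes. It was 3.39 for NAC34 (SE 0.89, adjusted p 0.400), 2.63 for NAC1 (SE 1.04, adjusted p 0.491) and 1.93 for NAC26 (SE 0.75, adjusted p 0.484), where water deficit was below control and combined stress above heat stress. For NAC018 it was -2.28 (SE 0.89, adjusted p 0.485), with water deficit above control and combined stress below heat stress. The heat stress mean behind this sign rests on a library 3 that differed from libraries 1 and 2 in all 4 genes. Without that library the interaction was 4.09 for NAC34, 3.60 for NAC1, 2.64 for NAC26 and -2.89 for NAC018 (limma adjusted p 0.0177, 0.0277, 0.0233 and 0.0659), which called the first 3. Groups of 3 libraries are too small for the test of single outlying libraries.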

How the results depend on the processing

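No paired analysis was possible because the labels give no replicate numbers shared between groups. Counts of NAC genes called moved with the processing, and the share of all genes called stands in parentheses beside each count. In water deficit against control, 0 (1.28%) became 1 with CPM scaling (1.2%), 5 with only the libraries compared (3.98%) and 5 with DESeq2 (5.85%). In heat stress against control, 0 (3.11%) became 1 without a variance trend (2.44%) and 2 with DESeq2 (10%). In combined stress against control, 5 (13.8%) became 3 with a mean of at least 50 (14.5%) and 9 with DESeq2 (20.9%). NAC51, 1 of the 5, has a mean of 44.4 and was not tested at that higher threshold. Against water deficit, combined stress went from 3 (12.7%) to 2 with edgeR (12.8%) and 9 with DESeq2 (21.4%). Against heat stress it went from 4 (5.21%) to 2 with CPM scaling (4.60%), 1 without a variance trend (4.29%), 1 with only the libraries compared (0.383%), 1 with edgeR (4.72%) and 9 with DESeq2 (11.6%). Leaving out library 3 of heat stress and library 3 of water deficit together, an alternative chosen after seeing the data, gave 3 in heat stress (17.3%) and 12 in combined stress (22.9%) against control. It gave 5 (15.4%) and 12 (23.3%) for combined stress against water deficit and heat stress, 2 (20.0%) for heat stress against water deficit, and 4 (5.63%) for the interaction.

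The fits that each left out 1 library gave, against control, 0 to 3 NAC genes for water deficit, 0 to 2 for heat stress and 0 to 8 for both together. They gave 0 to 6 for combined stress against water deficit, 0 to 10 against heat stress, 2 to 4 for heat stress against water deficit, and 0 to 4 for the interaction. Over all genes these fits ranged from 30 to 882 calls for water deficit, 139 to 4742 for heat stress and 1994 to 6614 for both together. They ranged from 1233 to 6460 for combined stress against water deficit, 382 to 6840 against heat stress, 2419 to 8324 for heat stress against water deficit and 0 to 1583 for the interaction. Of 192 tests of the 16 calls with 1 library left out, 110 kept the call and 82 lost it, and 135 of 158 under other processing kept it. No call changed sign in any of these fits. A group left with 2 libraries was assumed to vary like the other groups. The library with the fewest reads of NAC5 held 3, so its lowest heat stress value has large counting error.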

Other observations

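Of the 30 soybean NAC genes that RefSeq names and the table lists under another identifier, 15 had a mean under 10 in these leaves, 9 had at most 3 reads in every library and 6 had no read in any. The last 6 are listed as LOC100784947, LOC100797132, LOC100802373, LOC100804181, LOC100788660 and LOC100793870. By contrast, each of the 22 genes with a NAC symbol had a mean of at least 26.5. LOC100784323 and LOC100795553, which RefSeq names NAC42-1 and NAC42-2, had log2 changes in heat stress of -0.62 and -1.54 (limma adjusted p 0.439 and 0.357). NAC42-1 is known in soybean for regulating phytoalexins.

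Summed over the 22 NAC genes, normalized counts were 15087, 13704 and 13916 in control libraries 1 to 3, 15548, 13083 and 28704 in water deficit, 13687, 15120.1 and 18216 in heat stress and 21253, 18095 and 24509 in combined stress. All 3 combined stress sums were above all 3 control sums, and water deficit library 3 held the largest sum of the 12.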
